A study of Mus musculus with 6 samples.

Results

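Nuclear-encoded subunits of mitochondrial complex I were examined in the hearts of 10-day-old mice. The genes were the protein-coding rows of the expression table whose names begin with Ndufa, Ndufab, Ndufb, Ndufc, Ndufs or Ndufv and a digit, with the Ndufaf assembly factors left out. This gave 43 of the 46452 genes in the table. They were taken by name, but the set was chosen with earlier results of these data known. Of the 43, 37 encode subunits of complex I itself, 2 are Ndufa4 and its paralogue Ndufa4l2, and 4 carry the names of near copies of subunit genes (Ndufab1-ps, Ndufb4b, Ndufb4c and Ndufs6b). A further 3 names of the same pattern were not protein-coding and are no members. All 43 passed the filter of a mean of at least 1 FPKM over the 6 libraries (fragments per kilobase of gene length, scaled to library size).

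The study compared 3 libraries labelled Nat10-CKO with 3 libraries labelled Nat10flox/flox. CKO stands for conditional knockout of Nat10, which encodes an enzyme that acetylates cytidines in RNA, and flox/flox for loxP-flanked alleles of that gene. All 6 came from heart tissue at the same age, and each group had 3 independent biological replicates per the labels. The Cre driver, the cells in which it acts and the deleted exons are not given in the sources used here. Nat10 itself had 8.28, 8.66 and 10.2 FPKM in libraries labelled Nat10-CKO, against 3.75, 4.18 and 4.71 FPKM in the Nat10flox/flox libraries. It was thus higher under the knockout label, the log2 fold change being 0.94 ± 0.12 (SE) at a limma adjusted p of 0.00142. Because this goes against the label, each direction below is that of the libraries labelled Nat10-CKO, and both names are used as labels. Whether libraries were exchanged between the labels was not tested, and an exchange would turn every direction. Reads of deleted and intact exons cannot be separated in a value per gene.

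Complex I passes electrons from NADH to ubiquinone and pumps protons across the inner mitochondrial membrane, and it is the largest enzyme of the respiratory chain. Its peripheral arm holds the N module, which oxidises NADH, and the Q module, which reduces ubiquinone, while its membrane arm holds the proton-pumping parts. The mitochondrial genome encodes the hydrophobic ND subunits of the membrane arm, and the nucleus encodes the rest, as core subunits with bacterial counterparts and as supernumerary subunits without them. Heart muscle, whose contraction depends on respiration, carries these transcripts at high levels.

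Each library had 31155521 to 38051266 reads in genes. Mitochondrially encoded genes took 7.56% to 9.26% of reads in the libraries labelled Nat10-CKO and 16.55% to 18.35% in the Nat10flox/flox libraries. In each group the pairs of libraries that held replicate 1 had the lowest correlations of log2(FPKM + 1) over tested genes, 0.959 and 0.968 against 0.987 for the third pair under the Nat10-CKO label, and 0.948 and 0.951 against 0.985 in Nat10flox/flox. The replicate 1 library of Nat10flox/flox also held neuron markers at a summed 274 FPKM, against 2.06 to 12.8 FPKM in the other 5 libraries. Hearts were sequenced whole, so fewer cells of a type and less RNA per cell cannot be told apart. The marker counts stand against 16.0% lower and 24.4% higher of all tested genes. Cardiomyocyte markers were present in every library, with 2 of 10 lower under the Nat10-CKO label (Tnni3 and Pln) and none higher. For 5 of the 10, all libraries labelled Nat10-CKO lay below all Nat10flox/flox libraries, a pattern found for 24.4% of tested genes. All 6 endothelial, all 5 erythroid and all 3 tested proliferation markers were lower in the libraries labelled Nat10-CKO. None of 7 fibroblast and none of 7 macrophage markers was called. Of 5 tested smooth muscle and pericyte markers 2 were lower, and their sums did not overlap (118 to 158 FPKM under the Nat10-CKO label, 226 to 266 FPKM in Nat10flox/flox). Brown adipocyte markers summed to 224 to 293 FPKM under the Nat10-CKO label and 418 to 615 FPKM in Nat10flox/flox, nearly all of it Fabp4, which endothelial cells also express. The brown adipocyte gene Ucp1 was at 0 in all 3 libraries labelled Nat10-CKO and at 0 to 1.14 FPKM in Nat10flox/flox.

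Of the 37 genes of complex I itself, 16 were lower in the libraries labelled Nat10-CKO, by 1.36-fold (Ndufb4) to 2.61-fold (Ndufb1), and 3 of the other 6 genes were lower too (Ndufa4, Ndufa4l2 and Ndufb4b). By limma on log2(FPKM + 1), with Benjamini-Hochberg adjustment over 11996 tested genes, 19 of the 43 were lower at an adjusted p under 0.05 and 0 were higher. Over all tested genes, 16.0% were lower and 24.4% were higher. The median log2 fold change of the 43 genes was -0.59 and their range ran from -1.69 to 0.22, against a median of 0.03 over all tested genes, and 42 of the 43 had a negative sign. All libraries labelled Nat10-CKO lay below all Nat10flox/flox libraries for 31 of the 43 genes, a pattern found for 24.4% of tested genes. Of these 31, 12 did not pass the adjusted threshold. The genes called included Ndufa4, Ndufb1, Ndufs5, Ndufa3, Ndufc1, Ndufc2, Ndufa1, Ndufb5, Ndufb8, Ndufv3, Ndufa4l2, Ndufs3, Ndufs8, Ndufa7, Ndufv2, Ndufa10, Ndufb4 and Ndufb4b.

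The number called depended on the scaling and on single libraries. The deposited scaling includes the mitochondrial transcripts. When nuclear protein-coding genes were rescaled to a common total, 34 of the 43 were called lower against 21.1% of tested genes, and the median of all genes moved by -0.10 on the log2 scale. With array weights, which give outlying libraries less weight, 37 were called lower against 25.1% of tested genes, and Ndufa12 was called higher. Each library was also left out in turn. Without replicate 1, 2 or 3 under the Nat10-CKO label, 20, 11 and 32 genes were called lower. The shares of all tested genes were 16.0%, 11.4% and 14.6%. Without replicate 1, 2 or 3 of Nat10flox/flox the numbers were 9, 6 and 8, against 12.7%, 10.1% and 10.1% of tested genes. With both replicate 1 libraries left out the number was 15, against 15.9% of tested genes. Ndufa1, Ndufa4, Ndufa7, Ndufb1, Ndufc2 and Ndufs5 kept their call in all 6 fits that leave out 1 library, 6 of the 19 genes.

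**Figure D1:**
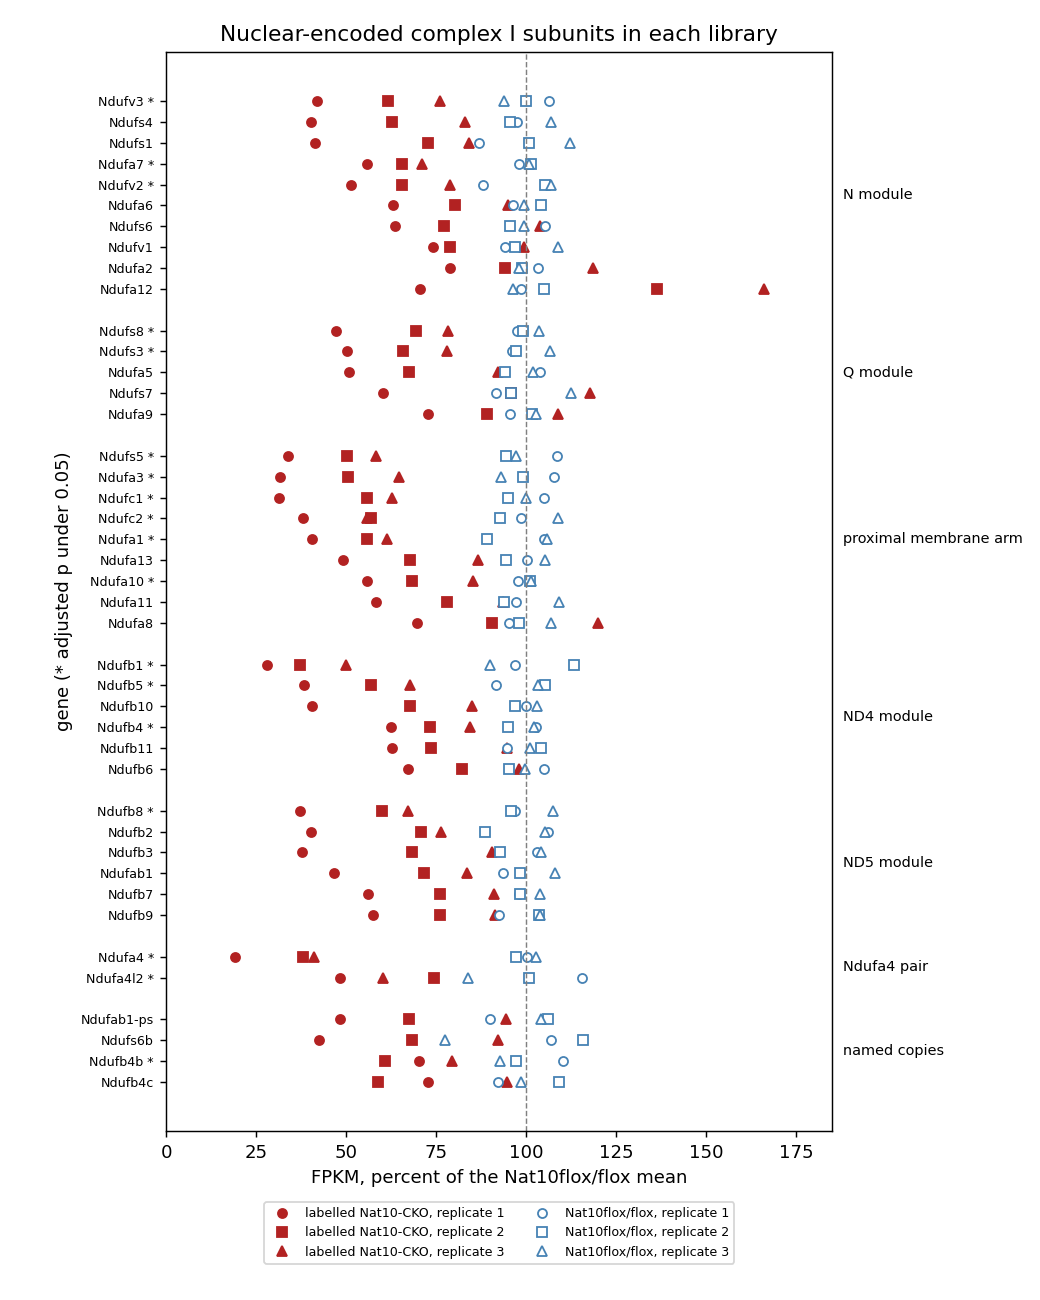
FPKM of 42 of the 43 genes in each library as a percent of the Nat10flox/flox mean of that gene, with genes down the page and an asterisk on those with an adjusted p under 0.05. The points of the replicate 1 library labelled Nat10-CKO lie left of all Nat10flox/flox points in each row, and those of replicate 3 are the highest of the Nat10-CKO label in most rows.

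The genes shifted together from library to library within the Nat10-CKO label. The median gene stood at 50.1%, 68.2% and 84.5% of its Nat10flox/flox mean in replicates 1, 2 and 3 labelled Nat10-CKO, against 97.9%, 98.2% and 102.9% in the Nat10flox/flox libraries themselves. In replicate 1 under the Nat10-CKO label all 43 genes were below the lowest Nat10flox/flox library, in replicate 2 there were 41 and in replicate 3 there were 31. Of all tested genes, 38.7%, 35.7% and 35.9% were below it in the same 3 libraries. Replicate 1 was the lowest of the Nat10-CKO label for 41 of the 43 genes, against 43.2% of tested genes, and replicate 3 was the highest for 41, against 38.9%. The 43 genes took 0.494%, 0.636% and 0.747% of all reads in genes in the libraries labelled Nat10-CKO, against 0.941%, 0.915% and 0.926% in the Nat10flox/flox libraries.

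The summed FPKM of 10 cardiomyocyte markers had the same order of libraries as the median gene within each label, but not across labels. It was 15590, 22765 and 25512 in replicates 1, 2 and 3 labelled Nat10-CKO, against 23742, 26553 and 28883 in the Nat10flox/flox libraries. The groups overlapped in this sum, because replicate 3 under the Nat10-CKO label exceeded replicate 1 of Nat10flox/flox. Summed endothelial markers ran from 181 to 191 FPKM in the libraries labelled Nat10-CKO and from 315 to 374 FPKM in Nat10flox/flox, with replicate 1 again the lowest of its label. Summed fibroblast markers ran the other way, at 699, 617 and 389 FPKM in replicates 1, 2 and 3 labelled Nat10-CKO, against 441 to 465 FPKM in Nat10flox/flox. The part of the marker levels in the complex I differences was not tested.

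Promoter sequences from RefSeq, build GRCm38.p6, were matched by gene ID for 35 of the 43 genes. Each ran from 250 bases before to 50 bases after a gene's start. Both strands were searched for letters bound by factors known for genes of respiration: GCGC, any 2 bases and GCGC for nuclear respiratory factor NRF1, AAGGTCA for the estrogen-related receptors (ERR), CCGGAAG for GABP and AAGATGG for YY1. No motif contains another. The windows below show the 3 genes with the most negative fold changes for which a window was given (Ndufa4, chr6:11907401-11907700, minus strand; Ndufb1, chr12:101975689-101975988, minus strand; Ndufs5, chr4:123718137-123718436, minus strand), one that holds several matches (Ndufb4, chr16:37654319-37654618, minus strand), and 2 genes at the other end of the range (Ndufa8, chr2:36049289-36049588, minus strand; Ndufa12, chr10:94198785-94199084, plus strand). Each reads 5′ to 3′ along the gene's strand, and capitals mark the matches.
Ndufa4: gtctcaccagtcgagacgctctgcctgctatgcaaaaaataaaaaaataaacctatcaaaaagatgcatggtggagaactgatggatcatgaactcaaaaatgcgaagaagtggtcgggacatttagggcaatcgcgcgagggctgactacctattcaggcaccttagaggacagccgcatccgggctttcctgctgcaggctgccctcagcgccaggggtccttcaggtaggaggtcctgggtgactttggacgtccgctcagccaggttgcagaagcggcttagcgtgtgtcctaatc
Ndufb1: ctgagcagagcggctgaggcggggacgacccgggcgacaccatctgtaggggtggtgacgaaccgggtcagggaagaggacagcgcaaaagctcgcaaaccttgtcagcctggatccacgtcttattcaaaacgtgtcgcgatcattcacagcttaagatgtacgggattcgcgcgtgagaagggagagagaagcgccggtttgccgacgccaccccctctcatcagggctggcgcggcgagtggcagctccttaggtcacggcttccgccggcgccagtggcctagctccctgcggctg
Ndufs5: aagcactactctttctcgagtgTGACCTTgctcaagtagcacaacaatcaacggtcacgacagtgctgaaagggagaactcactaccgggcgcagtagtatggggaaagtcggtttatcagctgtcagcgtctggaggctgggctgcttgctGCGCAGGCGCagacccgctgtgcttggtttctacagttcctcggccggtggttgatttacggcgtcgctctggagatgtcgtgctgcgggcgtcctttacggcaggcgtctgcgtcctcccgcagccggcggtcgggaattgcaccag
Ndufb4: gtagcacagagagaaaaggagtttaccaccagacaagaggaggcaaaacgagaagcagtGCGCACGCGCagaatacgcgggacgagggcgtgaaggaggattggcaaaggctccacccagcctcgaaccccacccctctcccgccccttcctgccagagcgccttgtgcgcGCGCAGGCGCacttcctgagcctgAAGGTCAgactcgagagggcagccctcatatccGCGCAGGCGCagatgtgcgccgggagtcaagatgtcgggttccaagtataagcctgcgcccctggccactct
Ndufa8: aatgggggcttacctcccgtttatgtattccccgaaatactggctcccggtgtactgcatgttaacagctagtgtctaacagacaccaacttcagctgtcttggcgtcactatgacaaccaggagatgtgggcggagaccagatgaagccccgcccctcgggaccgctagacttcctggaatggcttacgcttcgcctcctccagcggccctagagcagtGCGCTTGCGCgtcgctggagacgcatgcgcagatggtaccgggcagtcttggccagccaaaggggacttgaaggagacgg
Ndufa12: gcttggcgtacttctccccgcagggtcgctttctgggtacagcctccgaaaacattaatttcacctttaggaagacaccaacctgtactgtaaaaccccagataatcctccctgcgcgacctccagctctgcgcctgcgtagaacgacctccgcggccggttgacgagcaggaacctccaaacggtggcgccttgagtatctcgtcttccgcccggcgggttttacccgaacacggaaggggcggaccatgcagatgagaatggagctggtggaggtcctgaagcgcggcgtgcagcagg

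The windows of Ndufa4, Ndufb1 and Ndufa12 held none of the 4 motifs. The Ndufs5 window held an NRF1 match that began 98 bases before the start and an ERR match on the reverse strand 228 bases before it. Ndufb4 had NRF1 matches 191, 79 and 22 bases before its start and an ERR match at 55 bases. The Ndufa8 window had a single NRF1 match, 30 bases before the start. Of the 35 genes, 9 had NRF1 letters (25.7%, against 6.23% of 32851 promoters of the same length) and 7 had YY1 letters (20.0%, against 6.34%). GABP letters were found for 4 (11.4%, against 8.86%) and ERR letters for 3 (8.57%, against 4.72%). A gene counted if any of its windows matched, while the 32851 promoters were counted singly, so the shares differ in unit. The median log2 fold change was -0.45 for the 9 genes with an NRF1 match, of which 3 were called lower, and -0.67 for the 26 without, of which 14 were called. For YY1 the medians were -0.74 with a match and -0.62 without, for GABP -0.55 and -0.63, and for ERR -0.72 and -0.62. Genes with and without a match thus occurred at both ends of the range of fold changes.

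Among the core subunits, 4 of 7 were lower in the libraries labelled Nat10-CKO, against 16.0% of all tested genes, and none of the 4 calls held in all 6 fits that leave out a library. Ndufv1 (gene ID 17995), which binds NADH and the flavin where electrons enter, had 304, 323 and 407 FPKM in libraries labelled Nat10-CKO, against 387, 398 and 446 FPKM in the Nat10flox/flox libraries. The groups overlapped, and its log2 fold change of -0.26 ± 0.16 (SE) did not pass (limma adjusted p = 0.225). Its partner Ndufv2, which carries an iron-sulphur cluster, had 105, 134 and 162 FPKM in libraries labelled Nat10-CKO, against 180.1, 215 and 219 FPKM in the Nat10flox/flox libraries. The groups did not overlap, the means were 134 ± 28.3 against 205 ± 21.5 FPKM (SD, n = 3 each), and the log2 fold change was -0.63 ± 0.18 with a limma adjusted p of 0.0337, which went to 0.0859, 0.105 and 0.104 without replicate 2 under the Nat10-CKO label and without replicates 2 and 3 of Nat10flox/flox. Ndufs1, the iron-sulphur protein of the N module, had 64.7, 113 and 132 FPKM in libraries labelled Nat10-CKO, against 136, 158 and 175 FPKM in the Nat10flox/flox libraries. All 3 libraries labelled Nat10-CKO were lower, with replicate 1 far below the other two, and the difference did not pass (log2 fold change -0.65 ± 0.27, limma adjusted p = 0.0992).

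Among core subunits of the Q module, Ndufs3 and Ndufs8 were lower and Ndufs7 was not called. Ndufs3, a core protein of the Q module, had 136, 178 and 211 FPKM in libraries labelled Nat10-CKO, against 261, 264 and 289.8 FPKM in the Nat10flox/flox libraries. It was 1.55-fold lower without overlap (log2 fold change -0.65 ± 0.18, limma adjusted p = 0.0277). Ndufs8, which carries iron-sulphur clusters on the way to ubiquinone, had 78.9, 116 and 131 FPKM in libraries labelled Nat10-CKO, against 163, 166 and 174 FPKM in the Nat10flox/flox libraries. The libraries labelled Nat10-CKO were again all below, 1.54-fold by the means (log2 fold change -0.65 ± 0.20, limma adjusted p = 0.0377). Without single libraries the limma adjusted p went up to 0.0896 for Ndufs3 and 0.105 for Ndufs8, and each lost its call in 4 of the 6 fits. Ndufs7, which holds the last cluster before ubiquinone, had 189.8, 302 and 371 FPKM in libraries labelled Nat10-CKO, against 289, 302 and 354 FPKM in the Nat10flox/flox libraries. Here the groups overlapped, with replicate 3 under the Nat10-CKO label the highest of all 6 libraries, and no difference was called (log2 fold change -0.18 ± 0.25, limma adjusted p = 0.600).

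Supernumerary subunits of the peripheral arm differed widely among themselves. In the N module as a whole 3 of 10 genes were lower (median log2 fold change -0.49), and in the Q module 3 of 6 (median -0.57), against 16.0% of all tested genes. Ndufa7 had 54.0, 63.3 and 68.7 FPKM in libraries labelled Nat10-CKO, against 94.7, 98.0 and 97.7 FPKM in the Nat10flox/flox libraries, tightly grouped within each label and without overlap (log2 fold change -0.64 ± 0.12, limma adjusted p = 0.00714). Ndufv3, a small partner of Ndufv1 and Ndufv2, was lower with a log2 fold change of -0.77 ± 0.22 (limma adjusted p = 0.0296, lost in 4 of the 6 fits that leave out a library). Ndufs4, loss of which causes a Leigh-like disease in mice, had a log2 fold change of -0.74 that did not pass (limma adjusted p = 0.0542), although its groups did not overlap. The zinc protein Ndufs6 and Ndufa6 had values of -0.32 and -0.35, not called.

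Ndufa2, an N module subunit with a thioredoxin-like fold, had 172, 206 and 259.5 FPKM in libraries labelled Nat10-CKO, against 226, 216 and 214 FPKM in the Nat10flox/flox libraries. The libraries labelled Nat10-CKO spread on both sides of the Nat10flox/flox libraries, and the log2 fold change was -0.06 ± 0.17 (limma adjusted p = 0.792). Ndufa9, an NADPH-binding subunit at the junction of the arms, had 178, 218 and 266 FPKM in libraries labelled Nat10-CKO, against 234, 249 and 251 FPKM in the Nat10flox/flox libraries. Replicate 3 under the Nat10-CKO label was the highest of the 6 libraries, and no difference was called (log2 fold change -0.17 ± 0.17, limma adjusted p = 0.458). Ndufa5 of the Q module, with a log2 fold change of -0.55, was not called either.

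Ndufa12, a subunit of the N module, was the one gene of the 43 with a positive sign. It had 87.3, 169 and 206 FPKM in libraries labelled Nat10-CKO, against 122, 130.2 and 119.6 FPKM in the Nat10flox/flox libraries. The libraries labelled Nat10-CKO were split around the others, with replicate 1 below and replicates 2 and 3 above all Nat10flox/flox libraries, and the log2 fold change was 0.22 ± 0.30 (limma adjusted p = 0.583). Without replicate 1 under the Nat10-CKO label it was called higher, with a log2 fold change of 0.59 and a limma adjusted p of 0.0122, and without replicate 3 the value was -0.03. A pseudogene row named Ndufa12-ps, which lies within Rabgef1 on the same strand and is no member, had 209, 94.7 and 108 FPKM in libraries labelled Nat10-CKO, against 92.1, 85.3 and 134 FPKM in the Nat10flox/flox libraries. Replicate 1, the lowest of the Nat10-CKO label for Ndufa12, was here far above the other two, and it was not called (limma adjusted p = 0.440). Reads recovered for Ndufa12 numbered 3352, 6120 and 7296 under the Nat10-CKO label and 5186, 4296 and 4428 in Nat10flox/flox, and for Ndufa12-ps 3829, 1632 and 1813 under the Nat10-CKO label and 1859, 1339 and 2360 in Nat10flox/flox. Whether reads of Ndufa12 and its pseudogene were divided correctly by the authors' counting was not tested, so the values of both are uncertain.

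The proximal membrane arm, the part next to the peripheral arm, held 4 of the 6 most negative fold changes. Of its 9 nuclear genes 6 were lower (median log2 fold change -0.93), against 16.0% of all tested genes, and 8 had groups without overlap, against 24.4%. Ndufs5 (gene ID 595136, chromosome 4, 123606503 to 123611979, minus strand, GRCm39), an intermembrane-space subunit with paired CX9C motifs, had 72.4, 108 and 125 FPKM in libraries labelled Nat10-CKO, against 233, 203 and 209 FPKM in the Nat10flox/flox libraries. The 2 groups were far apart, with means of 102 ± 26.9 against 215 ± 16.2 FPKM (SD, n = 3 each), 2.11-fold apart, a log2 fold change of -1.10 ± 0.21 and a limma adjusted p of 0.00714. A gene row named Ndufs5-ps, at 2.28 to 4.94 FPKM under the Nat10-CKO label and 7.45 to 8.55 FPKM in Nat10flox/flox, was lower as well (log2 fold change -1.06, limma adjusted p = 0.00864). Ndufa3 (gene ID 66091, chromosome 7, 3620372 to 3623162, plus strand), a small membrane subunit, had 113, 181 and 232 FPKM in libraries labelled Nat10-CKO, against 386, 355 and 334 FPKM in the Nat10flox/flox libraries. It was 2.04-fold lower without overlap (log2 fold change -1.08 ± 0.26, limma adjusted p = 0.0164), a call lost without replicate 1 or 2 of Nat10flox/flox at adjusted p of 0.0524 and 0.0531.

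Both Ndufc genes, whose products sit beside ND2, were lower. Ndufc1 (gene ID 66377, chromosome 3, 51312876 to 51323167, minus strand) had 51.9, 92.2 and 104 FPKM in libraries labelled Nat10-CKO, against 174, 157 and 165 FPKM in the Nat10flox/flox libraries. All libraries labelled Nat10-CKO were below, 2.00-fold by the means (log2 fold change -1.05 ± 0.26, limma adjusted p = 0.0178), and the adjusted p was 0.0511 to 0.0553 without any 1 of the Nat10flox/flox libraries. Ndufc2 (gene ID 68197, chromosome 7, 97049210 to 97057007, plus strand) had 60.8, 90.8 and 89.2 FPKM in libraries labelled Nat10-CKO, against 157, 148 and 174 FPKM in the Nat10flox/flox libraries. Here replicates 2 and 3 labelled Nat10-CKO were close together, both far below Nat10flox/flox, and the difference was 1.99-fold (log2 fold change -1.004 ± 0.18, limma adjusted p = 0.00571). Ndufa1, a short X-linked membrane subunit needed for assembly, had 38.2, 52.8 and 58.1 FPKM in libraries labelled Nat10-CKO, against 99.5, 84.5 and 100.3 FPKM in the Nat10flox/flox libraries (log2 fold change -0.93 ± 0.18, limma adjusted p = 0.00700), with no overlap. Ndufa10, bound near ND2, was lower by a log2 fold change of -0.54 (limma adjusted p = 0.0435, lost in 4 of the 6 fits that leave out a library). Ndufa13, also known as the cell-death gene Grim19, had -0.59 and Ndufa11 -0.40, neither called.

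Ndufa8 stood apart within the proximal arm. Although its product, like Ndufs5, is an intermembrane-space protein with paired CX9C motifs, it had 228, 297 and 392 FPKM in libraries labelled Nat10-CKO, against 312, 320.4 and 350.0 FPKM in the Nat10flox/flox libraries. The groups overlapped, with the lowest and the highest of all 6 libraries both under the Nat10-CKO label, and the log2 fold change was -0.13 ± 0.21 (limma adjusted p = 0.638). The difference between the responses of Ndufa8 and Ndufs5 was not tested.

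The distal membrane arm holds the ND4 and ND5 modules. In the ND4 module 3 of 6 genes were lower (median log2 fold change -0.58), against 16.0% of all tested genes. In the ND5 module 1 of 6 was lower (median -0.65), a share near that of all tested genes. Ndufb1 (gene ID 102631912, chromosome 12, 101934355 to 101941997, minus strand, GRCm39), a very small membrane subunit, had 11.3, 14.9 and 20.1 FPKM in libraries labelled Nat10-CKO, against 39.0, 45.7 and 36.2 FPKM in the Nat10flox/flox libraries. Its 3 libraries labelled Nat10-CKO were all far below, with means of 15.5 ± 4.45 against 40.3 ± 4.86 FPKM (SD, n = 3 each), 2.61-fold apart, a log2 fold change of -1.36 ± 0.21 and a limma adjusted p of 0.00312. Ndufb1 overlaps Cpsf2 on the opposite strand, which averaged 8.49 FPKM under the Nat10-CKO label and 4.79 FPKM in Nat10flox/flox, and the strand setting of the counting is not given here. Ndufb5 had 81.9, 122 and 145 FPKM in libraries labelled Nat10-CKO, against 196, 226 and 221 FPKM in the Nat10flox/flox libraries. It did not overlap between the groups and was 1.84-fold lower (log2 fold change -0.91 ± 0.22, limma adjusted p = 0.0164), a call lost without replicate 2 or 3 of Nat10flox/flox. Ndufb4, lower by a log2 fold change of -0.45 (limma adjusted p = 0.0436), lost its call in 4 of the 6 fits that leave out a library. Ndufb10, the most abundant transcript of this module, had 233, 392 and 491 FPKM in libraries labelled Nat10-CKO, against 579, 561 and 596 FPKM in the Nat10flox/flox libraries. The groups did not overlap, the 3 libraries labelled Nat10-CKO were widely spread, and the log2 fold change of -0.70 ± 0.27 was not called (limma adjusted p = 0.0787).

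In the ND5 module all 6 genes had groups without overlap, a pattern found for 24.4% of tested genes. Ndufb8, often used as a protein marker of assembled complex I, was the one called, at 63.2, 102 and 114 FPKM in libraries labelled Nat10-CKO, against 165, 163 and 183 FPKM in the Nat10flox/flox libraries. It was 1.83-fold lower (log2 fold change -0.90 ± 0.23, limma adjusted p = 0.0193), a call lost without replicate 2 or 3 of Nat10flox/flox. Ndufab1, the mitochondrial acyl carrier protein that also serves fatty acid and iron-sulphur cluster synthesis, had 38.6, 59.4 and 69.2 FPKM in libraries labelled Nat10-CKO, against 77.6, 81.5 and 89.6 FPKM in the Nat10flox/flox libraries. Its libraries labelled Nat10-CKO were all lower, with a log2 fold change of -0.60 ± 0.22 that did not pass (limma adjusted p = 0.0663). Ndufb2, Ndufb3, Ndufb7 and Ndufb9 had log2 fold changes of -0.72, -0.69, -0.45 and -0.44, with limma adjusted p of 0.0585, 0.112, 0.102 and 0.111. Of the remaining ND4 module genes, Ndufb6 (-0.29) and Ndufb11 (-0.39) overlapped between the groups.

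**Figure D2:**
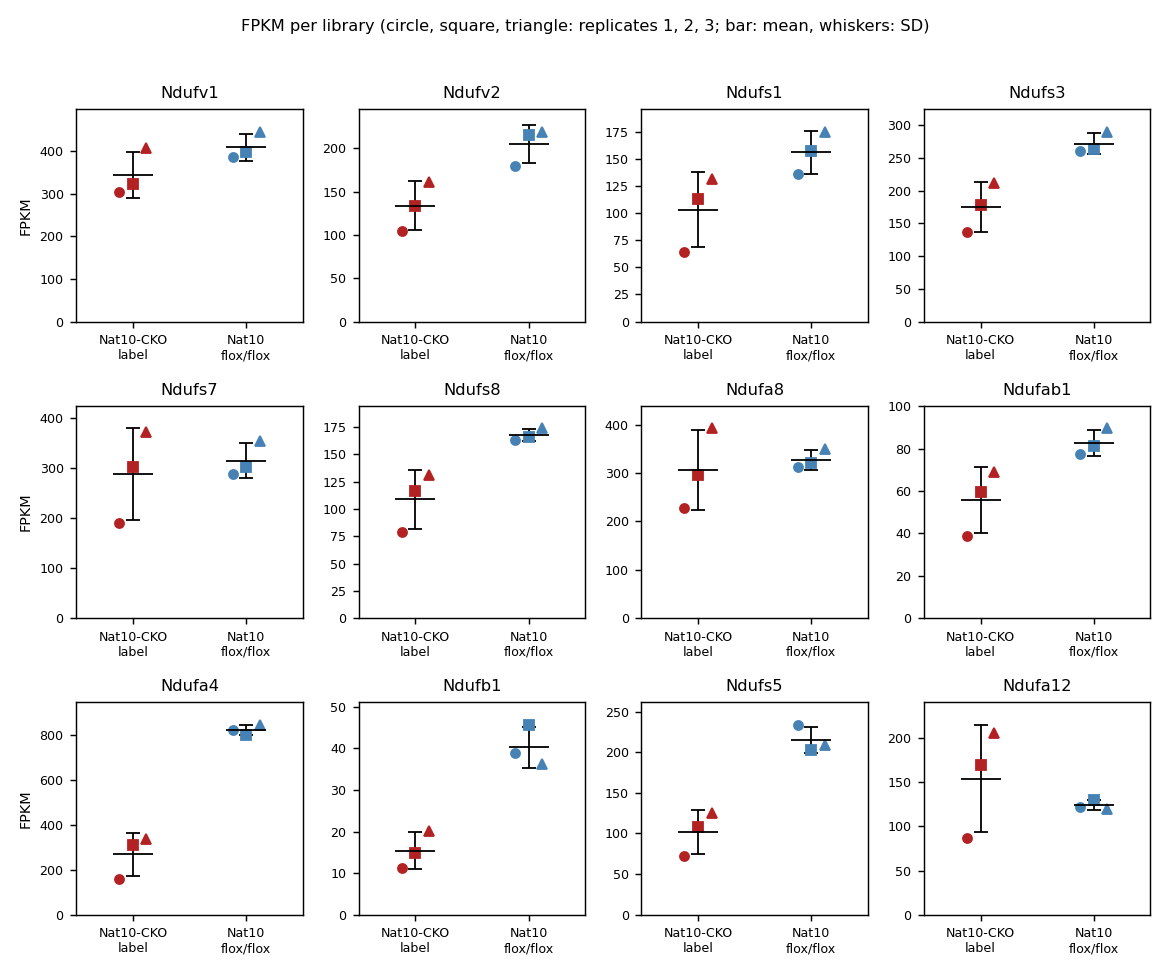
FPKM of selected genes in each library, with libraries labelled Nat10-CKO left of Nat10flox/flox libraries in each panel. Circles, squares and triangles are replicates 1, 2 and 3, bars are means and whiskers are SD (n = 3). Ndufa4 and Ndufb1 are separated widely, while for Ndufa12 and Ndufa8 the points of the Nat10-CKO label lie on both sides of the others.

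Ndufa4 (gene ID 17992, chromosome 6, 11900371 to 11907449, minus strand, GRCm39) had the most negative fold change of the 43 genes. Its product was named as a complex I subunit and is now assigned to cytochrome c oxidase. Its level was 157, 312 and 338 FPKM in libraries labelled Nat10-CKO, against 826, 799 and 846 FPKM in the Nat10flox/flox libraries. Replicate 1 under the Nat10-CKO label was the lowest, and even the highest of that label was far below each Nat10flox/flox library. The means were 269 ± 97.6 against 824 ± 23.3 FPKM (SD, n = 3 each), 3.06-fold apart, at a log2 fold change of -1.69 ± 0.29 and a limma adjusted p of 0.00487 that stayed at or below 0.0215 whichever library was left out. By mean FPKM it ranked first of the 43 in Nat10flox/flox, above Ndufb10 (579 FPKM) and Ndufb9 (527 FPKM), and it ranked 6 in the libraries labelled Nat10-CKO, where Ndufb9 (395 FPKM) and Ndufb10 (372 FPKM) led. It made up 3.45%, 4.95% and 4.40% of the summed FPKM of the 43 genes under the Nat10-CKO label, against 9.23%, 8.93% and 9.01% in Nat10flox/flox. Its paralogue Ndufa4l2, known as a gene induced by HIF-1 in hypoxia, had 9.07, 14.0 and 11.3 FPKM in libraries labelled Nat10-CKO, against 21.7, 18.9 and 15.8 FPKM in the Nat10flox/flox libraries. The groups did not overlap (log2 fold change -0.68 ± 0.18, limma adjusted p = 0.0247), and the call was lost without replicate 3 under the Nat10-CKO label and without replicate 1 or 2 of Nat10flox/flox. Ndufa4l2 overlaps Shmt2 on the opposite strand, which averaged 23.4 FPKM under the Nat10-CKO label and 19.7 FPKM in Nat10flox/flox.

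The 4 named copies were expressed at low levels, and reads may be shared between each and its parent gene. Ndufab1-ps had 11.9, 16.7 and 23.3 FPKM under the Nat10-CKO label, against 22.3, 26.2 and 25.8 FPKM in Nat10flox/flox libraries, and Ndufs6b had 2.35, 3.77 and 5.09 FPKM under the Nat10-CKO label, against 5.91, 6.40 and 4.27 FPKM in Nat10flox/flox libraries. Both overlapped between the groups and neither was called (limma adjusted p = 0.103 and 0.146). Ndufb4b had 2.77, 2.38 and 3.12 FPKM under the Nat10-CKO label, against 4.33, 3.82 and 3.64 FPKM in Nat10flox/flox libraries. It was the lowest-expressed of the 43 genes in both groups and was called lower (log2 fold change -0.39 ± 0.12, limma adjusted p = 0.0352), a call lost in 5 of the 6 fits that leave out a library. Ndufb4b also overlaps Dock8 on the same strand, which averaged 3.25 FPKM under the Nat10-CKO label and 3.85 FPKM in Nat10flox/flox. Ndufb4c, at 3.08, 2.49 and 4.0 FPKM under the Nat10-CKO label, against 3.90, 4.62 and 4.18 FPKM in Nat10flox/flox libraries, was not called (limma adjusted p = 0.121).

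The mitochondrially encoded partners of these subunits had a more negative median than the nuclear genes, a difference that was not tested. Of the 7 ND genes, all read from mitochondrial DNA, 6 were lower in the libraries labelled Nat10-CKO, with a median log2 fold change of -1.25, against 16.0% of all tested genes. With no filter on low values ND3 alone was called, against 6.63% of tested genes lower. The limma adjusted p of the other ND genes was then 0.166 to 0.597. With quantile normalization 5 were called, against 18.8% of tested genes, and the log2 fold change was -0.33 for ND1, -0.29 for ND4 and 0.0 for ND5. This scaling sets each value by its rank within its library, so it cannot show a change in a gene whose rank stays the same. The part that joins the peripheral arm includes ND1, at 7385, 7022 and 7866 FPKM in libraries labelled Nat10-CKO, against 15007, 16835 and 19539 FPKM in the Nat10flox/flox libraries. The groups were far apart (2.31-fold, log2 fold change -1.20 ± 0.18, limma adjusted p = 0.00292, 0.0546 without replicate 1 of Nat10flox/flox). ND2 had 4080.1, 4479 and 4973 FPKM in libraries labelled Nat10-CKO, against 12178, 13805 and 15680.2 FPKM in the Nat10flox/flox libraries, again without overlap (3.08-fold, log2 fold change -1.62 ± 0.18, limma adjusted p = 0.000972). ND3, which lies at the ubiquinone channel, had 42.1, 31.8 and 54.7 FPKM in libraries labelled Nat10-CKO, against 193, 200.1 and 405 FPKM in the Nat10flox/flox libraries. It had the largest fold of the ND genes (6.21-fold, log2 fold change -2.55 ± 0.33, limma adjusted p = 0.00164), at a level far below that of ND1 or ND2. ND4L had 125, 232 and 339.7 FPKM in libraries labelled Nat10-CKO, against 304, 765 and 572 FPKM in the Nat10flox/flox libraries. Its groups overlapped and the libraries of each group differed widely, and it was not called (log2 fold change -1.25 ± 0.46, limma adjusted p = 0.0686).

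The antiporter-like subunits of the distal membrane arm are ND4 and ND5. ND4 had 4086, 5016 and 5432 FPKM in libraries labelled Nat10-CKO, against 9473, 10826 and 11353 FPKM in the Nat10flox/flox libraries (2.18-fold, log2 fold change -1.13 ± 0.19, limma adjusted p = 0.00399). ND5 had 5503, 5979 and 6631 FPKM in libraries labelled Nat10-CKO, against 10585, 13209 and 14112 FPKM in the Nat10flox/flox libraries (2.09-fold, log2 fold change -1.06 ± 0.19, limma adjusted p = 0.00554, 0.0563 without replicate 1 of Nat10flox/flox). Neither overlapped between the groups. ND6, read from the opposite strand of mitochondrial DNA, had 3137, 2520.3 and 3601 FPKM in libraries labelled Nat10-CKO, against 7079, 7557 and 9056 FPKM in the Nat10flox/flox libraries (2.56-fold, log2 fold change -1.36 ± 0.20, limma adjusted p = 0.00267). Its groups did not overlap either, and the strand setting of the counting bears on it as on other antisense genes.

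Set beside each other, the 2 sets of transcripts differed in how the libraries were spread. The FPKM of the 37 nuclear genes of complex I summed to 4373, 5960.3 and 7298 in replicates 1, 2 and 3 labelled Nat10-CKO, against 8062, 8088 and 8492 in Nat10flox/flox. Those of the 7 ND genes summed to 24358, 25280.4 and 28898 under the Nat10-CKO label, against 54818, 63197 and 70718 in Nat10flox/flox. The nuclear sum covered a wide range under the Nat10-CKO label and came near the Nat10flox/flox level in replicate 3, whereas the ND sum stayed far below it in all 3 libraries. The ratio of the ND sum to the nuclear sum was 5.57, 4.24 and 3.96 under the Nat10-CKO label, against 6.80, 7.81 and 8.33 in Nat10flox/flox. The groups did not overlap in this ratio, which was not tested.

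**Figure D3:**
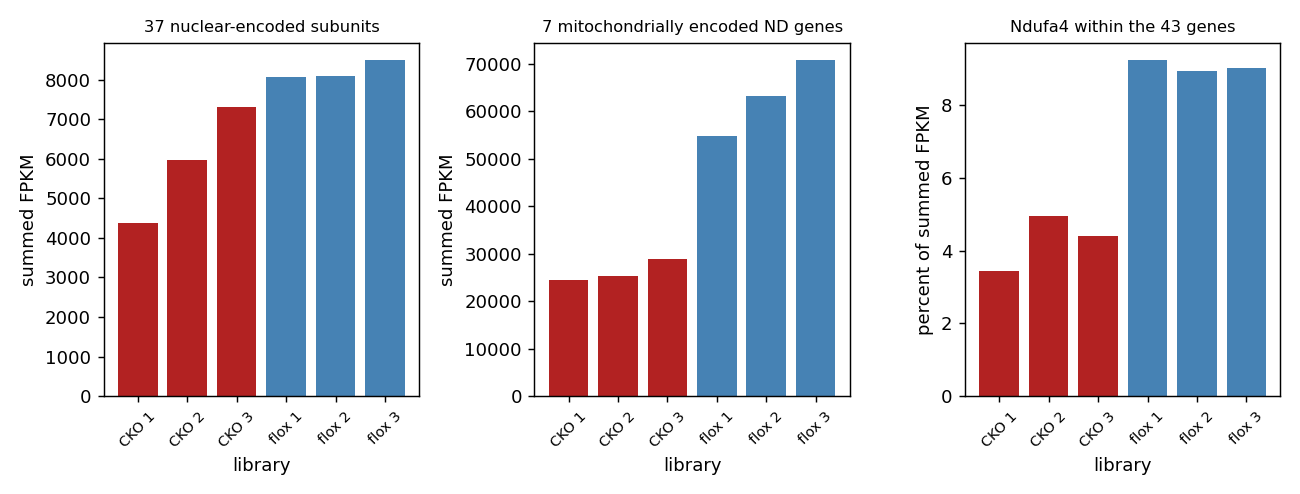
Summed FPKM of the 37 nuclear-encoded genes, summed FPKM of the 7 ND genes, and the share of Ndufa4 in the summed FPKM of the 43 genes, 1 bar per library, with libraries labelled Nat10-CKO left of Nat10flox/flox libraries. The nuclear bars range from 4373 to 7298 over the 3 libraries labelled Nat10-CKO, while the ND bars there stay between 24358 and 28898.

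Assembly factors of complex I, which are not part of the finished enzyme, were mixed. Of 17 tested, 6 were lower and 1 was higher under the Nat10-CKO label, at a median log2 fold change of -0.22, against 16.0% lower and 24.4% higher of all tested genes. The number called higher was 6 without replicate 1 under the Nat10-CKO label, 6 with array weights and 6 without both replicate 1 libraries. Of the 11996 tested genes, 3123, 3932 and 2923 were called higher in these fits, against 2932 in the main fit. The number was 0 without any 1 of the other 5 libraries, where 2126 to 2584 of all tested genes were higher. Ndufaf8, the partner of the arginine hydroxylase Ndufaf5, had 14.7, 18.4 and 15.1 FPKM in libraries labelled Nat10-CKO, against 31.5, 30.6 and 27.9 FPKM in the Nat10flox/flox libraries (log2 fold change -0.87 ± 0.12, limma adjusted p = 0.00208). Ndufaf7, a mitochondrial arginine methyltransferase, had 6.47, 6.63 and 6.33 FPKM in libraries labelled Nat10-CKO, against 10.2, 9.95 and 11.0 FPKM in the Nat10flox/flox libraries (log2 fold change -0.60 ± 0.09, limma adjusted p = 0.00242). Neither overlapped, and the libraries of each label lay close together. Ndufaf2, a paralogue of Ndufa12, had 6.39, 7.26 and 8.10 FPKM in libraries labelled Nat10-CKO, against 11.6, 11.0 and 11.4 FPKM in the Nat10flox/flox libraries (log2 fold change -0.59 ± 0.11, limma adjusted p = 0.00585). It had no overlap, unlike Ndufa12 itself. Acad9, a member of the complex that assembles the membrane arm, had 7.87, 10.1 and 8.92 FPKM in libraries labelled Nat10-CKO, against 12.3, 13.8 and 15.9 FPKM in the Nat10flox/flox libraries (log2 fold change -0.59 ± 0.13, limma adjusted p = 0.0139). Nubpl, which delivers iron-sulphur clusters, and Tmem70 were the others called lower. Tmem126b, of the same membrane arm assembly complex as Acad9 and named after its values were seen, was called higher at 16.9, 23.6 and 32.6 FPKM in libraries labelled Nat10-CKO, against 13.4, 15.0 and 15.0 FPKM in the Nat10flox/flox libraries (log2 fold change 0.67 ± 0.22, limma adjusted p = 0.0499), a call lost in 5 of the 6 fits that leave out a library.

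Nuclear-encoded subunits of the other respiratory complexes give a setting for these values. Of complex II, 3 of 4 were lower with a median log2 fold change of -0.70. Of complex III it was 4 of 9 with a median of -0.57, of complex IV 4 of 13 with -0.41, and of complex V (ATP synthase) 6 of 15 with -0.49. None of these 41 genes was called higher. Of all tested genes, 16.0% were lower and 24.4% were higher. The 37 genes of complex I, with 16 lower and a median of -0.60, lay within the range of these complexes, so the lower levels are not shown to be particular to complex I. The smallest adjusted p in each complex was that of Sdhb, the iron-sulphur subunit of complex II (log2 fold change -1.23 ± 0.25, limma adjusted p = 0.00851), Atp5g3, a subunit of the c ring (log2 fold change -0.90 ± 0.17, limma adjusted p = 0.00619), Cox6c of complex IV (log2 fold change -1.07 ± 0.24, limma adjusted p = 0.0140) and Uqcrfs1, the Rieske protein of complex III (log2 fold change -1.16 ± 0.27, limma adjusted p = 0.0160).

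**Figure D4:**
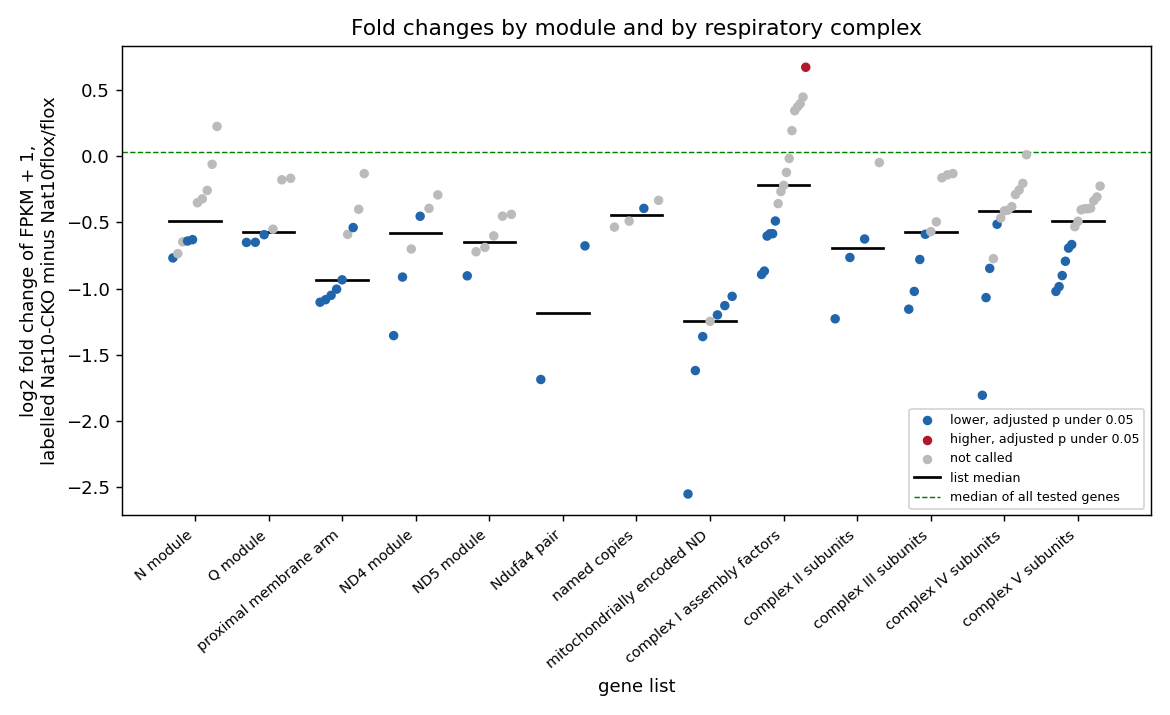
Log2 fold change on the log2(FPKM + 1) scale, libraries labelled Nat10-CKO minus Nat10flox/flox, for each gene of the complex I modules, the ND genes, the assembly factors and the nuclear subunits of complexes II to V. Nearly all points of the respiratory complexes lie below 0, those of the ND genes with the lowest list median (-1.25), and those of the assembly factors on both sides of 0.

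The members are abundant and many are short, so they were also set beside genes above a floor of FPKM and beside short genes. Among the 1895 tested genes whose mean reached 27.9 FPKM, the lowest mean among the 37 complex I genes, 15.9% were lower, 32.7% were higher and the median log2 fold change was 0.14. This floor does not match levels closely. The median of the 37 genes averaged 147 FPKM under the Nat10-CKO label and 209 FPKM in Nat10flox/flox. Among 623 tested genes shorter than 700 bases, a limit chosen after the values were seen, 19.6% were lower and the median was -0.21, against 15.8% and 0.05 among 11373 longer genes. The 20 members under 700 bases had 9 genes lower and a median of -0.51, and the 23 longer members had 10 lower and a median of -0.63. Core and supernumerary subunits had like medians, -0.63 with 4 of 7 lower and -0.60 with 12 of 30 lower.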

How the data were processed

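Heart RNA of 10-day-old mice was sequenced in 6 libraries, 3 per label. Poly-T beads selected messenger RNA, and directional libraries were read as pairs, per the labels' protocols. The submitters' processing notes name GRCm39, CASAVA, HISAT2 2.2.1, featureCounts 2.0.6 and DESeq2 1.42.0. The authors deposited FPKM per gene and library. The definition of gene length and the strand setting of the counting are not given in the sources used here, which leaves overlapping and antisense genes uncertain. Multiplying FPKM by gene length and dividing by the value of 1 read in each library gave whole reads for 100% of values (tolerance 0.01 read) and so the reads per library.

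The 11996 genes whose mean reached 1 FPKM entered limma 3.58.1 (R 4.3.3) on log2(FPKM + 1), two-sided, with a trend and no covariates, as libraries labelled Nat10-CKO minus Nat10flox/flox. Benjamini-Hochberg adjustment covered all tested genes, with a threshold of 0.05. This scale understates changes of low genes; each fold is a ratio of mean FPKM. Precision rests on 3 libraries per group. The test was checked on simulated reads in which each gene varied independently. That check does not cover shifts shared by many genes within a library. Members, gene lists and motifs were chosen with earlier results of these data known. Genes given by library were the core subunits, Ndufa4, Ndufa4l2, Ndufab1, the 6 members with the lowest and the 6 with the highest log2 fold change, the ND genes and up to 4 assembly factors; values of other members were chosen after they were seen. Values of 1 member and 1 marker are not reported here. Gene positions are the authors' GRCm39 coordinates, and promoters are RefSeq GRCm38.p6. Alternatives were a pseudocount of 0.1 or 0.5, other filters and scalings, no trend, array weights, voom on recovered reads, a replicate block and each library left out. Leaving out both replicate 1 libraries was added once the data had been seen. Python 3.11.15 and matplotlib 3.10.9 drew the figures.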

Additional observations from a re-analysis of the deposited data

How the results depend on the processing

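Of the 43 genes, 37 of them of complex I itself, 19 were called lower and 0 higher by limma. The number called lower was 19 with a pseudocount of 0.1 or 0.5 and with no trend, where 16.1% of all tested genes were lower. It was 20 of 40 tested with a mean FPKM of at least 5 (all genes 16.0%) and 26 with quantile normalization (18.8%). Voom on the recovered reads gave 18, and called 1957 genes lower (16.3%) and 2933 higher in all. The number was 8 with no filter on low values, against 6.63% of tested genes. It was 34 with the totals of nuclear protein-coding genes made equal (all genes 21.1%), 32 with mitochondrial genes dropped before rescaling (20.7%), and 37 with array weights (25.1%). All 19 were among those called under both rescalings, quantile normalization and array weights. Leaving out 1 library gave 6 to 32 called lower, against 10.1% to 16.0% of tested genes, and 0 to 1 called higher. The number called higher was also 1 with array weights and 1 with both replicate 1 libraries left out, each time Ndufa12. The fit with no filter covered 27977 genes, and those with a library left out used 5 libraries. The cause of the shifts was not tested. The replicate block gave 18 called lower, against 14.4% of tested genes, and 15 of the 18 were among the 19. Deviations from the group means correlated at 0.06, 0.04 and 0.11 between same-numbered libraries and at -0.12 to 0.07 between the others. These values cannot settle whether same-numbered libraries were paired. Signs turned for 4 named genes. Over the fits with 1 library left out the log2 fold changes ran from -0.39 to 0.093 for Ndufs7, from -0.33 to 0.061 for Ndufa8, from -0.21 to 0.079 for Ndufa2 and from -0.028 to 0.59 for Ndufa12, each lowest without replicate 3 and highest without replicate 1 under the Nat10-CKO label. With both replicate 1 libraries left out they were 0.034 for Ndufs7, 0.027 for Ndufa8 and 0.10 for Ndufa2. The median of the 43 genes ran from -0.76 without replicate 3 to -0.38 without replicate 1, both under the Nat10-CKO label. For short transcripts such as Ndufb1 and for the near copies, the number of reads limits precision beside the 3 libraries per group.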
